A study of Mus musculus with 16 samples.

Results

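The 10 genes described here, H2-D1, H2-K1, B2m, Tap1, Tap2, Tapbp, Psmb8, Psmb9, Nlrc5 and Cd274, are components and regulators of major histocompatibility complex (MHC) class I antigen presentation, with the T cell checkpoint ligand gene Cd274 added. They were taken by name, through the array probes whose transcript maps to each symbol, and make up 10 of the 15394 genes tested. These genes and the gene lists below were chosen with earlier results of these data known. Their counts beside the shares over all genes are therefore a description. RNA was measured on 16 one-colour arrays of primary mouse lung fibroblasts, 4 arrays in each of 4 groups. The cells came from female-labelled mice of 8 weeks that were either wild type C57BL/6J or lacked meflin, the product of Islr, which fibroblasts carry on their membrane, and they were kept for 48 h with recombinant TGF-β1 at 5 ng/ml or without it (vehicle). Both genotypes were prepared by enzymatic digestion of the lung, with no sorting step in the labels, and the labels name the strain for the wild type mice only. The study calls the 4 arrays of a group independent experiments. The number of animals behind each is not given, so p-values measure the spread between these cultures. The study's title asks how meflin bears on the response to TGF-β1, a cytokine that drives fibroblasts towards contractile, matrix-producing myofibroblasts.

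MHC class I molecules display fragments of the cell's own proteins to CD8 T cells. The fragments are cut by the proteasome, in which Psmb8 and Psmb9 replace constitutive catalytic subunits to form the immunoproteasome, are pumped into the endoplasmic reticulum by the Tap1 and Tap2 transporter, and are loaded with the help of tapasin (Tapbp) onto a heavy chain (H2-D1 or H2-K1) paired with beta-2-microglobulin (B2m). Nlrc5 encodes the transactivator of class I genes, and interferons, above all interferon gamma, induce the whole set. Cd274 encodes PD-L1, an interferon-inducible ligand that restrains T cells through PD-1.

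Promoters of 8 of the 10 genes were in the RefSeq promoter table of build GRCm38.p6, and 4 are printed because they include those of H2-D1, which fell most in wild type cells, and of B2m, the light chain gene shared by all class I molecules, and because class I promoters carry well-known interferon and kappaB elements. Each line gives the 250 bases before the listed start, 5′ to 3′ on the gene's strand. H2-D1 is at chr17:35262844-35263093 on the plus strand, H2-K1 at chr17:34000334-34000583 on the minus strand (the more downstream of 2 listed starts), B2m at chr2:122147437-122147686 on the plus strand and Tap1 at chr17:34187306-34187555 on the plus strand. Capitals mark the searched motifs on either strand, which are, as matched runs in the lines below, the class I interferon consensus and the palindromic kappaB site of class I genes (both in H2-D1 and H2-K1), a second kappaB site and an interferon-response element (both in B2m), TGACGC (site alpha, a CREB-type element) and CCAAT.
H2-D1: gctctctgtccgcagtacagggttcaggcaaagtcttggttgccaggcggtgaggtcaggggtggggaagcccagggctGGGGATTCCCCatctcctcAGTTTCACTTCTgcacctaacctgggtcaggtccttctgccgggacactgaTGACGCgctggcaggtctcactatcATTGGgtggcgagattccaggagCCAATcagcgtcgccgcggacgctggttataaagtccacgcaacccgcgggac
H2-K1: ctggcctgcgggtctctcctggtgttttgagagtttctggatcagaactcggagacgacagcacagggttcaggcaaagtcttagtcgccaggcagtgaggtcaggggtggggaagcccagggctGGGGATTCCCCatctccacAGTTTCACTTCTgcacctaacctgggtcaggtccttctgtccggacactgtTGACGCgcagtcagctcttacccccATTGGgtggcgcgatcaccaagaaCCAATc
B2m: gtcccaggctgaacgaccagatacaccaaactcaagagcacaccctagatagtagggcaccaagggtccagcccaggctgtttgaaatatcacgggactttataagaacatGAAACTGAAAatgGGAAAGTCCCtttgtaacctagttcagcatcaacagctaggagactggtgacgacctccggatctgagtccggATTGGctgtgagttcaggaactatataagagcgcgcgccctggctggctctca
Tap1: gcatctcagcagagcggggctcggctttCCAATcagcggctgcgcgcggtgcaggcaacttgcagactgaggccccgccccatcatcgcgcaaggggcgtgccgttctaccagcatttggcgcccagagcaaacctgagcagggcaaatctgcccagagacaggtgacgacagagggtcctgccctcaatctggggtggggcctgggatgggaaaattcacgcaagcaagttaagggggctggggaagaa

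The H2-D1 and H2-K1 promoters were identical at 180 of 203 aligned bases (88.7%) and held the same 5 matches in the same order, which begins with the kappaB site and the interferon consensus. The class I kappaB site was found in 0.0304% and the interferon consensus in 0.0274% of all 32851 windows of that length, TGACGC in 6.12% and CCAAT in 33.8%. The B2m promoter held the interferon-response element (2.98% of all windows), the other kappaB site on the opposite strand (0.14%) and CCAAT. The Tap1 window shares 225 bases with that of Psmb9, which is transcribed in the opposite direction, and held CCAAT alone of these motifs. Of the other windows, Tapbp and Psmb9 held CCAAT, Psmb8 held TTCNNNGAA (a STAT-type element, present in 7.02% of all windows and not marked above), and Cd274 held none of them. These matches describe the letters and not binding.

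Values are log2 processed spot signals after each array was shifted to the same 75th percentile, and differences called at an adjusted p under 0.05 are described as rises and falls. All 10 genes lay well above background on all 16 arrays, 15 probes mapped to them, 14 passed the filter, and 4 genes had more than 1 passing probe. The 75th percentile of signal ranged from 382 to 526 over the arrays, and 31322 to 35472 probes per array were well above background. The targeted gene Islr read 10.82 ± 0.06 (SD, n = 4) with vehicle and 8.34 ± 0.08 with TGF-β1 in wild type cells and was not well above background on the knockout arrays, at least 138-fold and 19.7-fold lower. Fibroblast markers were high in all groups, and so were leukocyte markers: all 13 genes of a macrophage list, among them Ptprc, Cd68 and Tyrobp, were well above background on every array. Of 11 dendritic and lymphoid cell markers 3 passed the filter: Itgax fell with TGF-β1 in both genotypes (-2.05 ± 0.06 and -1.32 ± 0.06), Cd3e was between 7.43 and 7.67 in the group means with no difference past the threshold, and Nkg7 was not well above background with vehicle and at least 1.8-fold and 7.98-fold higher with TGF-β1 in wild type and knockout cells. The T cell genes Cd3g and Cd8a, the B cell genes Cd79a and Ms4a1 and the natural killer cell gene Ncr1 did not pass. The arrays lay on 2 slides, each with 2 arrays of every group. Both wild type vehicle arrays of slide 2 (replicates 3 and 4) stood apart on interferon-stimulated genes: the mean level of 26 such genes was 10.36 and 10.35 on them, 9.67 and 9.63 on the wild type vehicle arrays of slide 1, and 9.64 to 9.79 on the knockout vehicle arrays. In 21 of the 26 genes the spread was largest in the wild type vehicle group. Results against that group are therefore also given without these 2 arrays for the 10 genes and some of the lists. This alternative was chosen after seeing the data. Because RNA was taken from whole cultures, fewer cells of a type and less RNA per cell cannot be told apart.

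TGF-β1 lowered every member of the set in both genotypes. In wild type cells 10 of 10 genes fell, with a median difference of -0.77 against 0.08 for all genes tested; over all genes 27.3% were called lower, 41.3% higher and 68.6% in either direction. In knockout cells 10 of 10 fell, with a median of -1.40 against 0.10, where 35.9% of all genes were called lower, 46.6% higher and 82.6% in either direction. For each of the 10, the 4 TGF-β1 arrays lay below the 4 vehicle arrays in both genotypes, a separation seen in that direction for 25% of all genes in wild type and 33.3% in knockout cells. Of all genes, 23.5% were called lower in both. Without the wild type vehicle arrays of slide 2, 9 of 10 genes fell in wild type cells (all but Tap2, adjusted p = 0.0734), with a median of -0.70, and Tap1 changed by -0.23 instead of -0.37 (adjusted p = 0.0149). In wild type cells the summed linear signal of the macrophage list fell to a mean of 54.9% of its vehicle value with TGF-β1. The summed signal of the 10 genes fell to 53%. That sum is weighted towards the brightest genes, B2m, H2-K1 and H2-D1 (15.56, 15.29 and 14.76 in wild type cells with vehicle). The part of the macrophage-type RNA in the class I values was not tested.

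**Figure D1:**
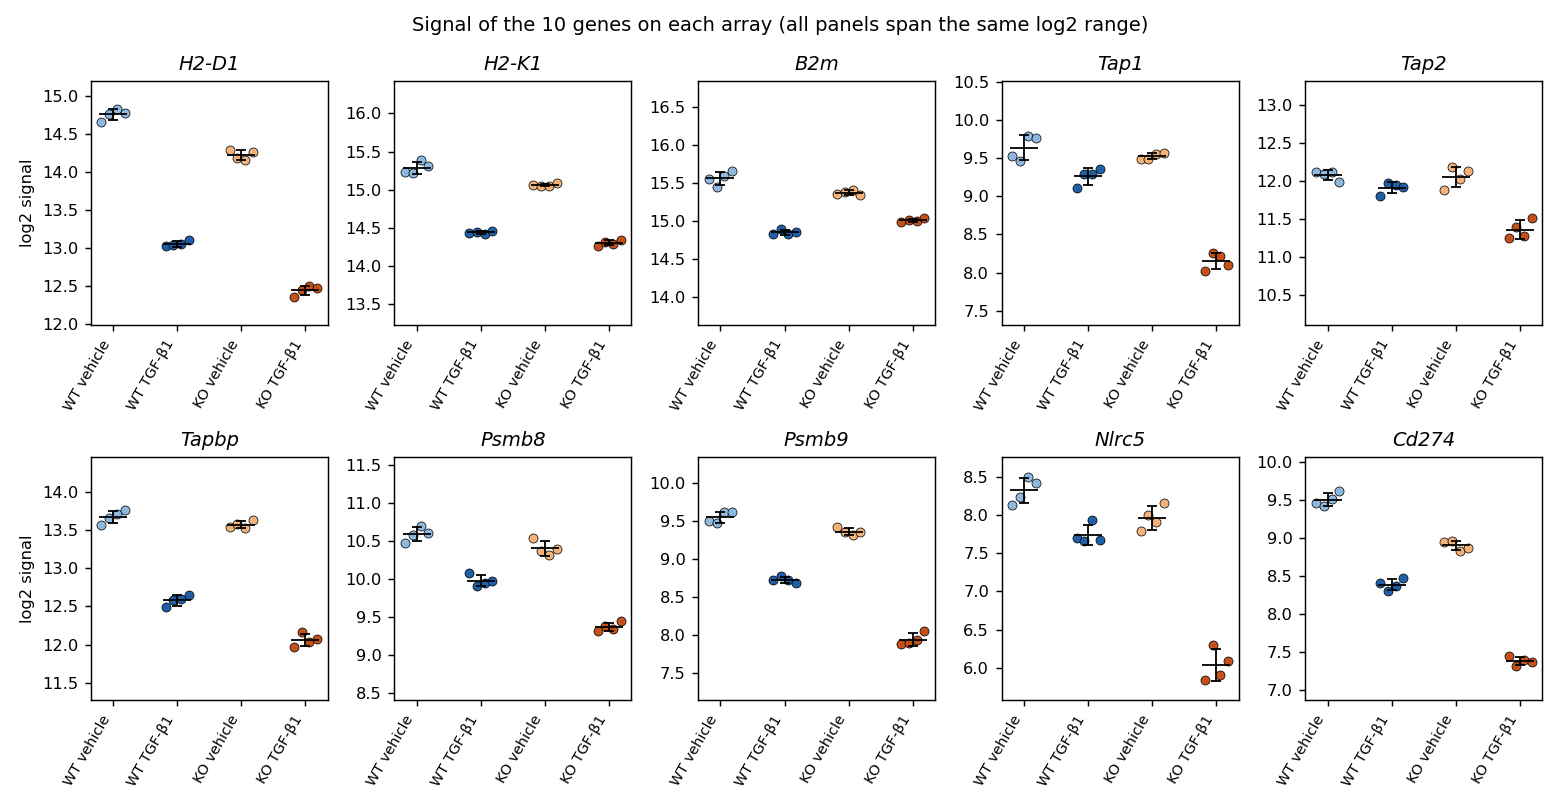
Log2 signal of each of the 10 genes on each array, by group (WT, wild type; KO, knockout); points are arrays, horizontal bars are means and whiskers are 1 SD (n = 4). The TGF-β1 arrays lie below the vehicle arrays of the same genotype in every panel; H2-D1 has the widest step in wild type cells (14.76 to 13.06) and Nlrc5 in knockout cells (7.97 to 6.04).

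The heavy chain gene H2-D1 had the largest fall of the set in wild type cells. It read 14.65, 14.77, 14.83 and 14.77 on the wild type vehicle arrays and 13.03, 13.04, 13.06 and 13.11 with TGF-β1. In knockout cells it read 14.29, 14.18, 14.16 and 14.26 with vehicle and 12.36, 12.45, 12.50 and 12.48 with TGF-β1. All 4 groups were separate. The fall was -1.70 ± 0.05 (SE; 3.24-fold, adjusted p = 1.92e-13) in wild type and -1.78 ± 0.05 (3.43-fold, adjusted p = 2.1e-14) in knockout cells. The responses of the genotypes differed by -0.08 ± 0.06 (adjusted p = 0.308), with a 95% interval of -0.22 to 0.06. This difference was -0.22 and past the threshold after quantile normalization (adjusted p = 0.00812) and in the authors' deposited table (adjusted p = 0.00912).

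The second classical heavy chain gene, H2-K1, spanned 15.22 to 15.39 in wild type cells with vehicle and 14.42 to 14.46 with TGF-β1, and in knockout cells 15.05 to 15.08 with vehicle and 14.27 to 14.34 with TGF-β1. Its groups did not overlap. H2-K1 fell by 0.85 ± 0.04 (1.8-fold) in wild type and by 0.76 ± 0.04 (1.69-fold) in knockout cells. A dimmer H2-K1 probe gave larger falls, -1.31 ± 0.04 and -1.15 ± 0.04, and an interaction of 0.16 ± 0.06 (adjusted p = 0.0255). The interaction of genotype and TGF-β1 was 0.09 ± 0.05 (adjusted p = 0.149, 95% interval -0.02 to 0.20) and its sign depended on the scaling, with 0.13 for the mean of both probes (adjusted p = 0.0223), -0.13 after quantile normalization (0.0361) and -0.12 in the authors' deposited table (0.0484), each past the threshold. Class I heavy chain genes are similar in sequence, so signal on these probes may be shared between them. Probe sequences were not used here.

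B2m encodes the invariant light chain that every class I heavy chain needs to reach the surface. It read 15.56, 15.45, 15.59 and 15.66 on the wild type vehicle arrays and 14.84, 14.89, 14.83 and 14.86 with TGF-β1. The knockout arrays read 15.35, 15.39, 15.41 and 15.34 with vehicle and 14.99, 15.01, 15.00 and 15.04 with TGF-β1. Unlike the other members, B2m was lowest in wild type cells with TGF-β1. It fell by 0.71 ± 0.04 (1.64-fold) in wild type and by 0.36 ± 0.04 (1.29-fold) in knockout cells, an interaction of 0.35 ± 0.06 (adjusted p = 8.34e-05). This smaller fall in knockout cells was lost under quantile normalization, where B2m fell by 0.94 in knockout cells and the interaction was 0.10 (adjusted p = 0.0712), and the higher B2m signal of knockout over wild type cells with TGF-β1 (0.16 ± 0.04) turned to -0.10. B2m was not among the probes of the authors' deposited table.

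The peptide transporter genes fell more in knockout than in wild type cells. Tap1, whose product forms the transporter with that of Tap2, read 9.53, 9.47, 9.80 and 9.76 on the wild type vehicle arrays and 9.10, 9.30, 9.30 and 9.36 with TGF-β1. In knockout cells Tap1 went from 9.49, 9.50, 9.56 and 9.57 to 8.03, 8.26, 8.21 and 8.10. The vehicle arrays of the genotypes overlapped, and the knockout TGF-β1 arrays lay below all others. Tap1 fell by 0.37 ± 0.08 (1.3-fold, adjusted p = 0.000549) in wild type and by 1.38 ± 0.08 (2.6-fold, adjusted p = 1.88e-10) in knockout cells, an interaction of -1.01 ± 0.11 (adjusted p = 1.81e-06). A dimmer Tap1 probe gave -0.49 ± 0.11, -1.1 ± 0.11 and an interaction of -0.61 ± 0.16.

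Tap2 had the smallest response to TGF-β1 in wild type cells. It read 12.12, 12.09, 12.12 and 11.98 with vehicle and 11.81, 11.97, 11.95 and 11.92 with TGF-β1, and the nearest arrays of these groups were about equal (11.98 and 11.97). This difference of -0.17 ± 0.07 (adjusted p = 0.0473) was lost with the slide as a block (adjusted p = 0.0516), with no filter on dim probes (0.0664) and when any of 6 of the 8 arrays was left out, namely vehicle replicates 1, 2 and 3 (adjusted p = 0.102, 0.0812 and 0.101) and TGF-β1 replicates 1, 3 and 4 (0.132, 0.0593 and 0.0743). In knockout cells Tap2 went from 11.88, 12.18, 12.03 and 12.13 to 11.25, 11.40, 11.28 and 11.52, a fall of 0.69 ± 0.07 (1.61-fold, adjusted p = 2.44e-07). The interaction was -0.52 ± 0.10 (adjusted p = 0.000382).

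Tapbp, the tapasin gene, whose product bridges the transporter and the empty heavy chain, fell clearly in both genotypes. Its arrays read 13.57 to 13.77 (wild type vehicle), 12.49 to 12.66 (wild type TGF-β1), 13.53 to 13.63 (knockout vehicle) and 11.96 to 12.16 (knockout TGF-β1). Tapbp fell by 1.1 ± 0.05 (2.14-fold) and by 1.51 ± 0.05 (2.85-fold) in wild type and knockout cells, with an interaction of -0.42 ± 0.07 (adjusted p = 0.00019). A dimmer probe for another Tapbp transcript gave -0.86 ± 0.07, -1.16 ± 0.07 and -0.30 ± 0.10. The vehicle arrays of the genotypes overlapped.

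Both immunoproteasome genes on the list responded alike in direction. Psmb9 read 9.50, 9.48, 9.61 and 9.62 on the wild type vehicle arrays, 8.73, 8.78, 8.73 and 8.68 with TGF-β1, and in knockout cells 9.42, 9.35, 9.32 and 9.35 with vehicle and 7.89, 7.90, 7.94 and 8.06 with TGF-β1. It fell by 0.82 ± 0.05 (1.77-fold) in wild type and by 1.41 ± 0.05 (2.67-fold) in knockout cells, with an interaction of -0.59 ± 0.07 (adjusted p = 2.15e-06). Psmb8 ranged from 10.47 to 10.70 and 9.91 to 10.08 in wild type and from 10.32 to 10.55 and 9.32 to 9.44 in knockout cells, vehicle before TGF-β1. Its falls were 1.53-fold (-0.61 ± 0.06) and 2.05-fold (-1.03 ± 0.06), with an interaction of -0.42 ± 0.08 (adjusted p = 0.000406).

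Nlrc5, the class I transactivator gene, showed, on its brightest probe, the largest difference between the genotypes' responses. It read 8.14, 8.24, 8.51 and 8.42 on the wild type vehicle arrays and 7.70, 7.66, 7.94 and 7.68 with TGF-β1. In knockout cells it went from 7.80, 8.00, 7.90 and 8.16 to 5.84, 6.30, 5.91 and 6.09, so that no knockout TGF-β1 array came within 1 log2 unit of any other array. Nlrc5 fell by 0.58 ± 0.11 (1.5-fold, adjusted p = 0.000261) in wild type and by 1.93 ± 0.11 (3.81-fold, adjusted p = 2.4e-10) in knockout cells, and the interaction was -1.35 ± 0.16 (adjusted p = 3.42e-06). A dimmer Nlrc5 probe, at 4.54 ± 0.41 (SD, n = 4) with vehicle in wild type cells and well above background on only 1 of 4 knockout TGF-β1 arrays, gave -0.41 ± 0.22 and -0.22 ± 0.22 and passed the threshold in no comparison. With the mean of both probes the Nlrc5 interaction was -0.58 (adjusted p = 0.0174) and that of Tap1 -0.81.

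Cd274, the PD-L1 gene, fell in the same direction as the presentation genes. Its arrays read 9.46, 9.42, 9.52 and 9.61 (wild type vehicle), 8.40, 8.30, 8.36 and 8.47 (wild type TGF-β1), 8.94, 8.97, 8.83 and 8.87 (knockout vehicle) and 7.45, 7.32, 7.40 and 7.38 (knockout TGF-β1), with no overlap between groups. The fall was 2.17-fold (-1.12 ± 0.05) in wild type and 2.86-fold (-1.52 ± 0.05) in knockout cells. The interaction of -0.40 ± 0.07 (adjusted p = 0.000253) was -0.14 (adjusted p = 0.0768) when normexp background correction preceded quantile normalization. Cd274 also had the largest genotype difference of the set with vehicle, -0.60 ± 0.05 (1.51-fold, adjusted p = 3.4e-06).

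Tested directly, the response to TGF-β1 differed between the genotypes for 8 of the 10 genes. The interaction was negative, a larger fall in knockout cells, for 7 genes (26.5% of all genes were called in this direction) and positive for B2m (31.9% of all genes; 58.3% were called in either direction). Among all genes that were lower with TGF-β1 in both genotypes, 57.8% had a negative interaction. Its median was -0.42 over the set and 0.05 over all genes tested. Without the wild type vehicle arrays of slide 2 it was again negative for 7 genes and positive for 1, with a median of -0.48. Among the 7, the interaction ran from -1.35 for Nlrc5 and -1.01 for Tap1 to -0.40 for Cd274. H2-D1 and H2-K1 did not pass.

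**Figure D2:**
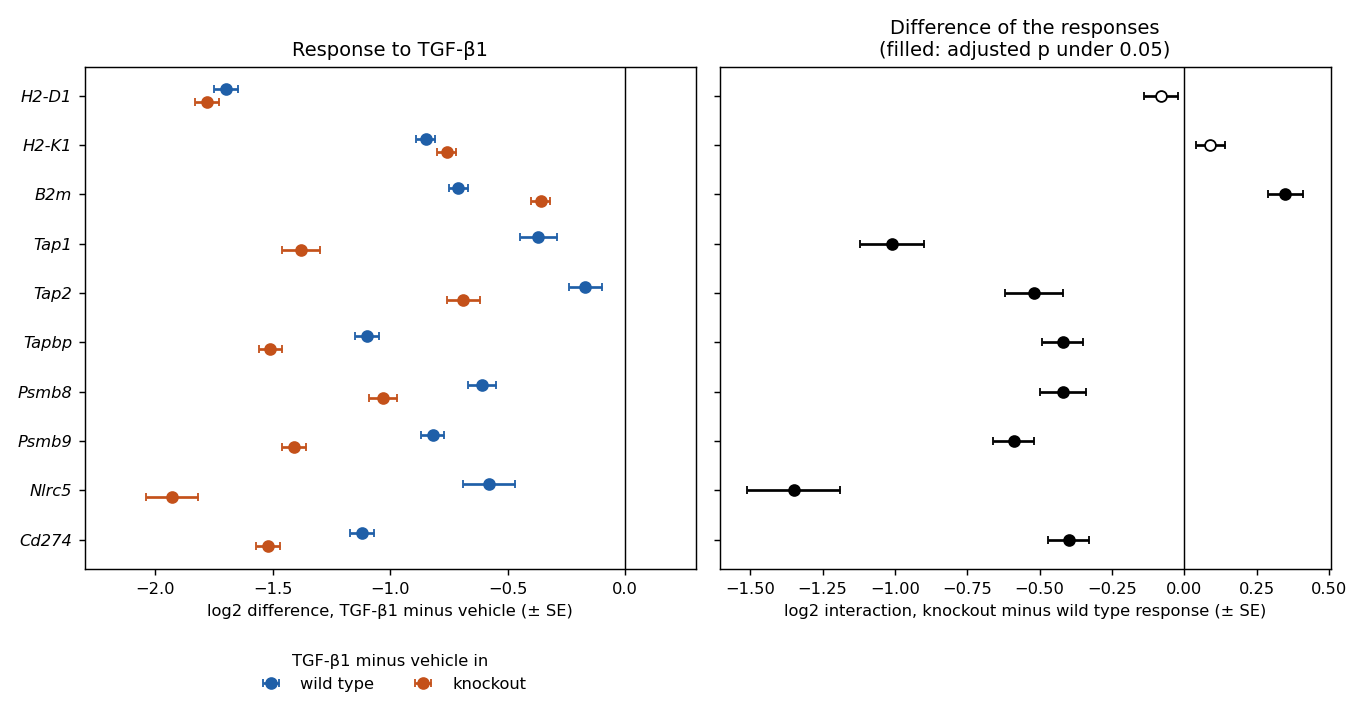
Left, log2 difference between TGF-β1 and vehicle for each gene in wild type (blue) and knockout (orange) cells with standard errors; right, the difference of these responses, knockout minus wild type, with filled points past an adjusted p of 0.05. Knockout points lie to the left of wild type points for Tap1, Tap2, Tapbp, Psmb8, Psmb9, Nlrc5 and Cd274, and to the right for B2m, whose interaction of 0.35 fell to 0.10 under quantile normalization.

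Genotype differences without the cytokine were small. With vehicle 7 of 10 genes were lower in knockout than in wild type cells and none was higher, where 6.16% of all genes were called lower, 7.06% higher and 13.2% in either direction; the median was -0.19 over the set and 0.03 over all genes. Besides Cd274, H2-D1 was lower by -0.53 ± 0.05 (1.45-fold, adjusted p = 3.5e-06), H2-K1 by -0.23 ± 0.04 (adjusted p = 0.00087), B2m by -0.19 ± 0.04 (0.00508) and Psmb9 by -0.19 ± 0.05 (0.0135). For these 5 genes the arrays did not overlap, against 8.18% of all genes in that direction. Psmb8 (-0.18 ± 0.06, adjusted p = 0.0476) and Nlrc5 (-0.36 ± 0.11, adjusted p = 0.0453) were close to the threshold and overlapped. Psmb8 lost the call with the replicate number as a block (adjusted p = 0.0695), both lost it in a fit of these groups alone (0.114 and 0.0576), and each lost it without any of 6 of the 8 arrays. The arrays were wild type replicates 2, 3 and 4 with knockout replicates 2, 3 and 4 for Psmb8 (adjusted p = 0.0822, 0.135, 0.0866, 0.118, 0.133 and 0.0997), and wild type replicates 2, 3 and 4 with knockout replicates 1, 2 and 3 for Nlrc5 (0.0589, 0.126, 0.0981, 0.106, 0.0792 and 0.106). Tap1, Tap2 and Tapbp did not pass, with differences of -0.11 ± 0.08, -0.02 ± 0.07 and -0.11 ± 0.05. Without the wild type vehicle arrays of slide 2, 3 of the 10 genes were called, namely H2-D1 (-0.49), H2-K1 (-0.16) and Cd274 (-0.53), and B2m, Psmb8, Psmb9 and Nlrc5 lost the call (adjusted p = 0.0622, 0.26, 0.137 and 0.29). On the arrays of slide 1 alone 2 of the 10 genes were called, and on those of slide 2 alone 6. Calls also dropped over all 15394 genes, from 2036 in either direction on all arrays to 197 on slide 1 and 1048 on slide 2. Of the 13 macrophage markers 6 were called lower in knockout cells with vehicle. Without the wild type vehicle arrays of slide 2 the count was 4, on slide 1 alone 1 and on slide 2 alone 8. Their summed signal was 143000 to 148000 in knockout cells. In wild type cells it was 169000 and 171000 on slide 1 and 193000 and 191000 on slide 2. The part of macrophage-type RNA in these differences was not tested.

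With TGF-β1 in both genotypes, 9 of 10 genes were lower in knockout cells (30.5% of all genes) and B2m was higher (39.7% of all genes; 70.2% were called in either direction), a direction that turned under quantile normalization. No arrays of these groups overlapped for any of the 10 genes, with knockout below wild type for 9 (27.5% of all genes) and above it for B2m (37.2%). Nlrc5 was lower by -1.71 ± 0.11 (3.27-fold), Tap1 by -1.12 ± 0.08 (2.17-fold), Cd274 by -1.0 ± 0.05 (2-fold) and Psmb9 by -0.78 ± 0.05 (1.72-fold). H2-K1 had the smallest of these differences, -0.14 ± 0.04 (adjusted p = 0.00402), which did not pass on either slide alone (adjusted p = 0.0521 and 0.0555). Ordered by mean level, 9 genes ran from wild type vehicle through knockout vehicle and wild type TGF-β1 to knockout TGF-β1. B2m had the TGF-β1 groups in the opposite order. The first and second groups in this order overlapped for Tap1, Tap2, Tapbp, Psmb8 and Nlrc5, and the next pair for Tap2 and Nlrc5.

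Over the 16 arrays the members followed each other to different degrees, given here as a description because the arrays share the same 4 groups. H2-D1 and H2-K1 were each other's closest member (r = 0.99), as were Psmb8 and Psmb9 (r = 0.992) and Tap1 and Nlrc5 (r = 0.985). Tap2 was closest to Nlrc5 (r = 0.959). B2m stood furthest from the mean profile of the set (r = 0.796) and was least like Tap2 (r = 0.551), whereas Psmb9 was nearest to that profile (r = 0.996).

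Other class I and class I-like heavy chain genes mostly fell. Of 15 tested, 11 fell and 2 rose in wild type cells and 13 fell and 2 rose in knockout cells, with medians of -0.31 and -0.58. H2-Q2, H2-Q7, H2-Q10 and H2-T23 changed by -1.53 ± 0.04, -1.70 ± 0.04, -1.84 ± 0.08 and -1.41 ± 0.04 in wild type cells and by -1.48 ± 0.04, -1.67 ± 0.04, -1.70 ± 0.08 and -1.45 ± 0.04 in knockout cells, and their interactions, from -0.03 to 0.14, did not pass. These probes may share signal with those of H2-D1 and H2-K1. Fcgrt, the neonatal Fc receptor gene, and Hfe, a regulator of iron uptake, fell more in knockout cells (-0.31 ± 0.04 and -1.0 ± 0.04 for Fcgrt; -0.18 ± 0.06 and -1.01 ± 0.06 for Hfe; interactions of -0.68 ± 0.05 and -0.83 ± 0.09). H2-T3 rose by 0.45 ± 0.11 and 1.1 ± 0.11.

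The general machinery of protein folding and breakdown did not fall with the set. Of 12 genes for peptide trimming, folding and loading, 9 rose and 2 fell in each genotype, with medians of 0.37 and 0.56, which were 0.09 and 0.01 after quantile normalization with 6 and 5 rises. Lap3, a cytosolic aminopeptidase gene, rose by 0.80 ± 0.04 and 1.48 ± 0.04, and Calr, the calreticulin gene, by 0.47 ± 0.04 and 0.78 ± 0.04. Erap1, which trims class I peptides in the endoplasmic reticulum, fell by 0.59 ± 0.07 and 0.75 ± 0.07, and the tapasin-related Tapbpl by 0.25 ± 0.05 and 0.42 ± 0.05. Of 11 other proteasome genes, 9 rose and 2 fell in wild type and 8 rose and 2 fell in knockout cells, but after quantile normalization 4 rose and 4 fell, and 5 rose and 4 fell. Psmb5 and Psmb7, constitutive catalytic subunits, rose by 0.42 ± 0.04 and 0.41 ± 0.05 in wild type and by 0.85 ± 0.04 and 1.03 ± 0.05 in knockout cells. The 2 that fell in both genotypes were interferon-inducible parts, the immunoproteasome subunit Psmb10 (-0.26 ± 0.04 and -0.46 ± 0.04) and the activator subunit Psme1 (-0.24 ± 0.05 and -0.49 ± 0.05).

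**Figure D3:**
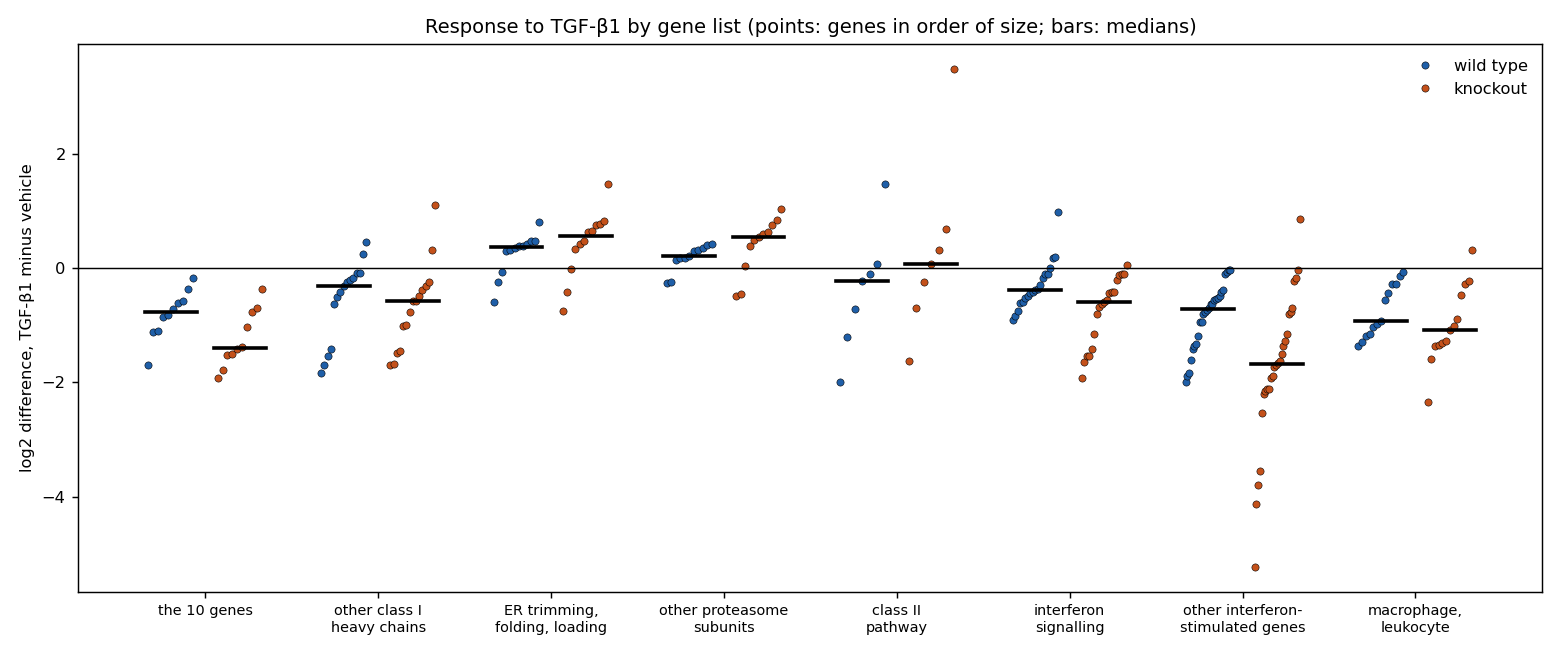
Log2 difference between TGF-β1 and vehicle for every tested gene of 8 lists in wild type (blue) and knockout (orange) cells, in order of size within a list, with black bars at the medians. The class I, interferon and macrophage lists lie mostly below 0 in both genotypes; the ER and proteasome lists lie mostly above 0 here (medians 0.56 and 0.54 in knockout cells), but near 0 after quantile normalization (0.01 and 0.03).

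Genes of interferon signalling fell with the class I set. Of 19 tested, 13 fell and 3 rose in wild type cells and 18 fell in knockout cells, with medians of -0.39 and -0.60. Without the wild type vehicle arrays of slide 2, 11 fell and 3 rose in wild type cells, with a median of -0.34. Stat2, a signal transducer of type I interferon, fell by 0.44 ± 0.11 in wild type and by 1.42 ± 0.11 in knockout cells, and Irf2 fell by 0.37 ± 0.06 and by 1.64 ± 0.06. Irf1, which binds class I promoters, fell by 0.60 ± 0.06 and 0.80 ± 0.06. The interaction was negative for 10 of the 19, among them Stat2 (-0.98 ± 0.15) and Irf2 (-1.27 ± 0.08), and for 12 without those 2 arrays. The inhibitor gene Socs3 rose by 0.99 ± 0.06 in wild type and fell by 0.42 ± 0.06 in knockout cells.

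Interferon-stimulated genes outside antigen presentation also fell, and these are the genes on which the wild type vehicle arrays of slide 2 stood apart. Of 26 tested, 21 fell in wild type cells and 22 fell and 1 rose in knockout cells, with medians of -0.71 and -1.68. Without those 2 arrays 17 fell and 2 rose in wild type cells, with a median of -0.40. Iigp1, an interferon-inducible GTPase gene, went from 11.62 to 9.80 in wild type and from 11.39 to 6.16 in knockout cells, and the chemokine gene Cxcl10 from 11.05 to 9.16 and from 10.59 to 7.03. The interaction was negative for 19 of the 26, and for 23 without those 2 arrays. With vehicle 1 of these 26 genes was called lower in knockout cells, Oas1a (-0.58 ± 0.11), but 7 were after normexp and quantile normalization, 3 of 22 in the authors' deposited table, 18 on slide 2 alone and 0 on slide 1 alone. The interferon genes themselves were mostly too dim: 3 of 9 were tested, and Ifnb1 and Ifng did not pass the filter. Those tested were dim too, with group means from 4.05 to 6.24. Ifna2 was well above background on 2 of 4 knockout vehicle and 3 of 4 wild type TGF-β1 arrays. None was called lower. Ifna1, Ifna2 and Ifnl3 rose in knockout cells by 0.53 ± 0.11, 0.76 ± 0.16 and 0.62 ± 0.14. Their median there, 0.62, was 0.28 after normexp and quantile normalization. Ifna1 rose in wild type cells by 0.39 ± 0.11.

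Genes for factors of the shared class I and class II promoter elements, listed with NF-kappaB genes, changed less uniformly. The 11 tested included Nfkb1, Rela and the inhibitor gene Nfkbia. Of the 11, 3 rose and 4 fell in wild type and 2 rose and 6 fell in knockout cells. After quantile normalization 2 rose and 6 fell in wild type, and 1 rose and 7 fell in knockout cells. Rfx5, a subunit of the complex that binds these promoters, fell by 0.31 ± 0.08 and 0.55 ± 0.08, whereas its partner Rfxap rose by 0.27 ± 0.06 and 0.55 ± 0.06 and Rfxank rose by 0.43 ± 0.06 in wild type and fell by 0.18 ± 0.06 in knockout cells. Nfkb1 fell by 0.58 ± 0.06 and 0.75 ± 0.06. Nfkbia, an inhibitor and target of NF-kappaB, fell by 0.93 ± 0.04 and 1.37 ± 0.04.

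MHC class II genes, which present extracellular antigen to CD4 T cells, did not move as a block. H2-Ab1 rose from 8.66 ± 0.11 to 10.14 ± 0.08 (SD, n = 4) in wild type and from 8.00 ± 0.03 to 11.48 ± 0.01 in knockout cells, with an interaction of 2.01 ± 0.07 (adjusted p = 1.25e-11). Cd74, the invariant chain gene, fell by 2.00 ± 0.11 and 1.63 ± 0.11, and H2-Eb1 by 1.21 ± 0.09 and 0.25 ± 0.09. With vehicle all 7 tested genes of the class II list were called lower in knockout cells, against 6.16% of all genes. The differences ran from -0.18 for Ctss (adjusted p = 0.0476) to -0.97 for Cd74. Values without the wild type vehicle arrays of slide 2 are not given for this list. The class II transactivator gene Ciita and H2-Aa did not pass the filter.

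Other ligands that T cells and natural killer cells read went in both directions. Of 14 co-signalling genes besides Cd274, 4 rose and 5 fell in wild type and 7 rose and 4 fell in knockout cells. Pvr, a ligand of TIGIT and CD226, rose by 0.94 ± 0.04 and 1.91 ± 0.04, and Cd86 by 0.23 ± 0.09 and 1.46 ± 0.09. Cd200 fell by 1.89 ± 0.08 and 1.27 ± 0.08. Of 4 tested genes among ligands of NKG2D and ICAMs, 1 rose and 2 fell in each genotype: Raet1e rose in wild type cells (0.21 ± 0.05), Ulbp1 rose in knockout cells (0.47 ± 0.11), and Icam1 fell by 0.40 ± 0.07 and 1.04 ± 0.07 and Icam2 by 0.96 ± 0.05 and 2.09 ± 0.05.

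Of the 10 genes, 6 lie on chromosome 17 in the stretch from H2-K1 to H2-D1, where the reference lists 77 other protein-coding genes. Of the 63 tested, 19 rose and 20 fell in wild type cells and 22 rose and 20 fell in knockout cells. Over all genes 41.3% were called higher and 27.3% lower in wild type cells, and 46.6% and 35.9% in knockout cells. The medians of the 63 genes were 0.01 and 0.08, against 0.08 and 0.10 for all genes tested. Among the largest changes of the 63 genes were complement genes, a matrix gene and the class II gene H2-Ab1 described above. In wild type and knockout cells C4b changed by -1.91 ± 0.06 (3.76-fold) and -4.81 ± 0.06 (28-fold), Cfb by -2.47 ± 0.07 (5.53-fold) and -4.63 ± 0.07 (24.7-fold), and C2 by -1.02 ± 0.04 and -2.43 ± 0.04. Tnxb, the tenascin X gene, fell by 2.30 ± 0.10 and 4.66 ± 0.10. H2-Eb2 was dim, at 4.94 ± 0.88 (SD, n = 4) in wild type cells with vehicle, the only group through which it passed the filter. It was well above background on 0 of 4 TGF-β1 arrays in each genotype. With TGF-β1 it was at least 2.09-fold lower in wild type cells, a difference that this filter favours. With vehicle 2 of the 63 genes were higher and 7 lower in knockout cells, against 7.06% and 6.16% of all genes.

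**Figure D4:**
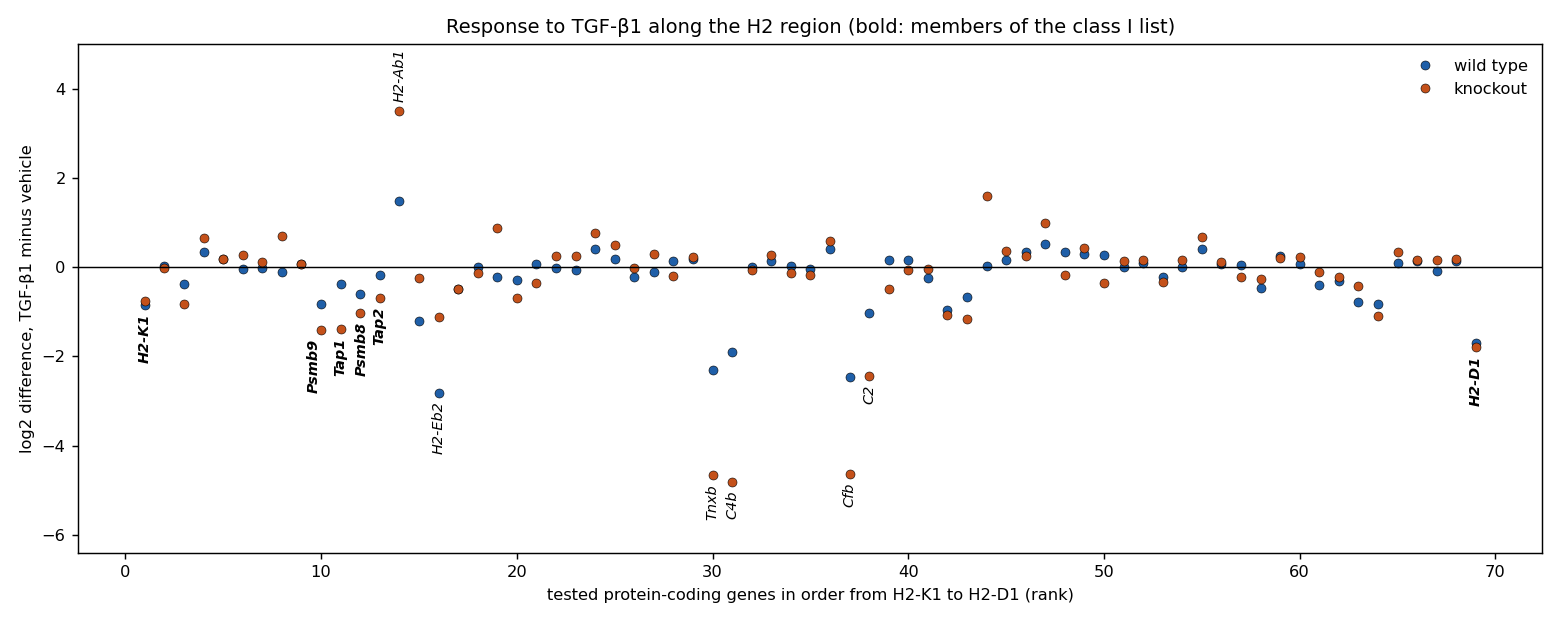
Log2 difference between TGF-β1 and vehicle in wild type (blue) and knockout (orange) cells for the 69 tested protein-coding genes from H2-K1 to H2-D1, in their order along the chromosome; members of the class I list are named in bold, and other genes are named where either difference exceeds 2 log2 units. Most of the genes lie near 0, and the class I genes at both ends and the group of Psmb9, Tap1, Psmb8 and Tap2 lie below 0.

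Markers of macrophages and endothelial cells mostly moved with the set, and mesothelial markers did so in knockout cells. Fibroblast and epithelial markers moved in both directions, as did mesothelial markers in wild type cells. Of 13 macrophage and leukocyte markers, 11 fell in wild type cells, and 12 fell and 1 rose (Itgam, 0.32 ± 0.05, which was -0.06 after quantile normalization) in knockout cells, with medians of -0.92 and -1.08. In wild type cells the arrays' summed signal spanned 169000 to 193000 with vehicle and 96100 to 103000 with TGF-β1, and in knockout cells 143000 to 148000 and 71300 to 78000. As means in percent of the wild type vehicle value these were 54.9, 79.7 and 41.3, against 53, 83.9 and 48.8 for the 10 genes. The sum of the 10 genes is weighted towards B2m, H2-K1 and H2-D1. Its mean went from 138000 to 73000 in wild type and from 116000 to 67200 in knockout cells. It does not show the larger falls in knockout cells of the 7 genes with a negative interaction. The interaction was negative for 7 of the 13 markers and positive for 1. It was called for Cd68 (-1.05 ± 0.08) and not for Tyrobp, Lyz2, Adgre1 and Csf1r (-0.01 ± 0.09, -0.08 ± 0.10, 0.07 ± 0.11 and 0.16 ± 0.09). All 8 endothelial markers fell in both genotypes. In wild type cells with TGF-β1 their summed signal was 45.2% of its wild type vehicle value. In percent of that same value, knockout cells stood at 88.1% with vehicle and 29.6% with TGF-β1. The summed signal of the 10 fibroblast markers was at 118% and 110% of its wild type vehicle mean with TGF-β1, but the members differed in direction: 6 rose and 4 fell in wild type cells and 5 rose and 5 fell in knockout cells, and after quantile normalization 4 rose and 4 fell, and 3 rose and 6 fell. The collagen genes Col1a1 (0.68 ± 0.04 and 0.74 ± 0.04) and Col1a2 (0.54 ± 0.05 and 0.53 ± 0.05) rose, while Pdgfra (-0.44 ± 0.05 and -2.21 ± 0.05), Dcn (-0.71 ± 0.04 and -1.52 ± 0.04), Lum (-0.76 ± 0.06 and -2.09 ± 0.06) and Fbln1 (-1.68 ± 0.10 and -2.81 ± 0.10) fell. Of 6 tested epithelial markers 3 rose and 2 fell in each genotype, with rises of the keratin genes Krt8 and Krt18 and falls of the surfactant genes Sftpb and Sftpc. Of 6 mesothelial markers 2 rose and 3 fell in wild type cells and 5 fell in knockout cells, among them Upk3b (-1.11 ± 0.08 and -3.35 ± 0.08).

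**Figure D5:**
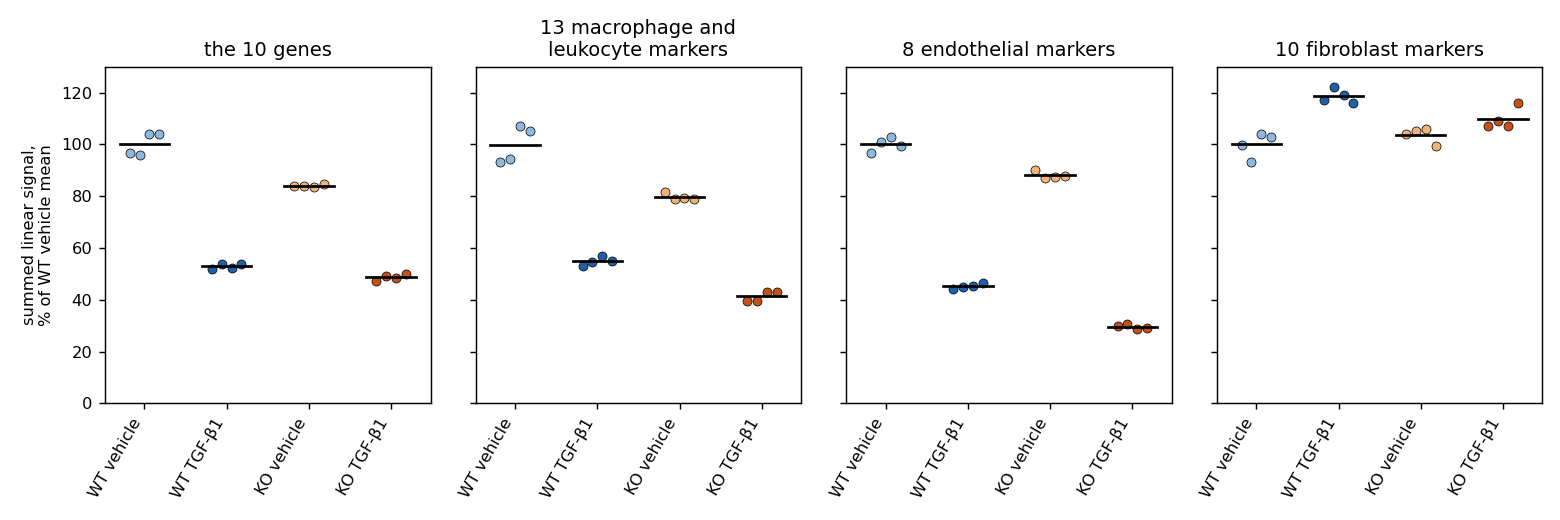
Summed linear signal of the 10 class I genes and of the macrophage, endothelial and fibroblast marker lists on each array, in percent of the wild type vehicle mean; points are arrays and bars are group means. The class I and macrophage sums are both lower in wild type cells with TGF-β1 (53% and 54.9%). The mean fibroblast sum is 118% there, although 4 of the 10 fibroblast markers fell in wild type and 5 in knockout cells. The class I sum is weighted towards its brightest genes, B2m, H2-K1 and H2-D1.

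The genes outside these lists whose profiles over the 16 arrays were most like the mean profile of the set were Lilra6, Myo1f, Hvcn1, Slc11a1, Sash3, Rnf144b, Pira2 and Wdfy4, with Pearson r from 0.996 to 0.998. Lilra6, a leukocyte immunoglobulin-like receptor gene, changed by -1.95 ± 0.05 in wild type and by -3.05 ± 0.05 in knockout cells, and Slc11a1, a metal transporter gene of phagocytes, by -1.92 ± 0.05 and -3.17 ± 0.05. The least like were Elovl4, Fam149a, Lzic and Fzd2, with r from -0.995 to -0.994. Since all arrays share the same 4 groups, such values describe the order of the groups and carry no test.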

How the data were processed

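RNA of the 16 cultures was labelled with Cy3 and hybridised to 1-colour Agilent arrays. Per the file headers, each array's deposited file gives linear spot intensity, with background subtracted, from Agilent Feature Extraction 11.0.1.1, for an array design drawn on mm9. A further table from the authors gives deposited log2 values for 9933 probes, which followed the arrays' own log2 intensity with r of 0.999 or more, whose normalization and choice of probes are not given in the sources used here. The median of its columns in wild type cells was 6.60, 6.60, 6.61 and 6.61 (vehicle) and 6.47, 6.47, 6.49 and 6.47 (TGF-β1), and in knockout cells 6.59, 6.59, 6.57 and 6.58 (vehicle) and 6.39, 6.38, 6.39 and 6.38 (TGF-β1); values were not centred per probe and higher means brighter.

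After log2 transformation and averaging of repeat spots, arrays were shifted to a common 75th percentile. Probes with outlier marks (27) were left out, and 33888 of 56605 probes were kept because 1 or more groups had them well above background throughout (4 of 4 arrays). Probes were named through their transcript accession through the gene table of RefSeq, and the brightest kept probe stood for a gene. The tests are those of limma 3.58.1 (R 4.3.3), 2-sided, on all 16 arrays with 12 residual degrees of freedom; p-values of each of 5 comparisons were adjusted over 15394 genes by Benjamini-Hochberg. The fit was also run on simulated arrays with independent noise, in which 200 genes were changed in the wild type TGF-β1 group only. These arrays held no slide or replicate effect, so that run cannot speak to such effects. Values after ± are standard errors unless SD is given; folds called "at least" set the bright group against the lowest signal well above background. Promoters were searched with Python 3.11.15, and 2 promoters were aligned with Biopython 1.88.

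The members and lists were chosen with earlier results of these data known. Named genes are all members with every probe, members of the lists, up to 6 genes of the H2 region with the largest differences per comparison, Islr, and the 8 most and 4 least similar genes. Alternatives were quantile scaling, normexp background correction (offset 50, on the median spot signal), filters on dim probes, the slide or replicate number as a block, each slide alone, the deposited table, the mean of all probes of a gene, the compared groups alone, leaving out each array and, chosen after seeing the data, leaving out the wild type vehicle arrays of slide 2. Each of 2 slides held 2 arrays of every group. The scaling of the lists was compared after seeing the data. The number of arrays limits the precision.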

Additional observations from a re-analysis of the deposited data

Results flagged for a closer look

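Among 40 groups of 4 arrays tested for a lone high or low value, 1 stood out: Nlrc5 on replicate 3 of wild type TGF-β1, at 7.94 against 7.66 to 7.70 on the other 3 arrays. Chance gives about 1 in 20, or 2 of 40.

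The response to TGF-β1 differed between knockout and wild type cells, by the test of the interaction, for 8 genes: B2m (0.35), Tap1 (-1.01), Tap2 (-0.52), Tapbp (-0.42), Psmb8 (-0.42), Psmb9 (-0.59), Nlrc5 (-1.35) and Cd274 (-0.40). Over all genes 58.3% were called, 26.5% with a negative and 31.9% with a positive interaction. Among genes lower with TGF-β1 in both genotypes 57.8% had a negative one. The B2m interaction lost the call after quantile normalization (0.10, adjusted p = 0.0712). With normexp before it, B2m was at 0.08 (adjusted p = 0.262) and Cd274 at -0.14 (adjusted p = 0.0768).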

How the results depend on the processing

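Over all settings, member results kept direction and side of the threshold in 643 cases, lost the call in 32, gained it in 5 and reversed in 5. The falls with TGF-β1 held in knockout cells for 10 of 10 genes in every setting that measured them all and for 9 of 9 in the authors' deposited table, which lacks B2m, and in wild type cells with the exception of Tap2. The reversals were B2m in knockout against wild type cells with TGF-β1 (-0.10 under quantile and under normexp scaling) and the H2-K1 interaction (-0.13, -0.15 and, in the authors' deposited table, -0.12). No member was called higher (0) in knockout cells with TGF-β1, and none (0) had a called positive interaction, under quantile or normexp scaling, on slide 1 alone, where B2m kept its direction (0.13), or in the authors' table, which lacks B2m; with the mean of all probes 2 had one. On slide 1 alone 2 members, and without the wild type vehicle arrays of slide 2 (chosen after seeing the data) 3 members, were called lower in knockout cells with vehicle. The cause of these changes was not tested. Scaling moved the median of all genes for TGF-β1 in knockout cells from 0.10 to -0.01 (quantile); it was -0.36 in the authors' table, which also holds other genes. The share of calls that were higher was 60.2%, 56.5% and 54.6% for the wild type response, the knockout response and the interaction, 52.1%, 48.6% and 43.6% with quantile scaling, and 46.1%, 46.9% and 48.1% in the authors' table; for the genotype with vehicle it went from 53.4% to 38.9% in that table.

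Genes called among the 5257 of the authors' table numbered 4376, 4841, 1160, 4213 and 3825 for the wild type response, the knockout response, the genotype with vehicle, the genotype with TGF-β1 and the interaction. Slide 1 alone gave 197 for genotype with vehicle and 5620 for the interaction, and slide 2 alone 1048 for genotype with vehicle, against 2036 and 8978 on all arrays. With 1 array left out the members called lower ranged from 9 to 10 (TGF-β1, wild type), 10 to 10 (knockout), 5 to 7 (genotype, vehicle), 9 to 9 (genotype, TGF-β1) and 7 to 7 (interaction).

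Same-numbered arrays of different groups deviated together weakly (r from -0.034 to 0.218, median 0.0767, 8 of 24 pairs over 0.1). Other arrays of the same slide had a median of 0.0515, with 3 of 24 pairs over 0.1. Arrays of different slides had a median of -0.057, with 0 of 48 over 0.1. The main fit took neither the numbers nor the slides into account. Both were used as blocks among the alternatives. With the replicate block 10, 10, 6, 9 and 7 members were called lower in the same order of comparisons, and all-gene counts were 10788, 12847, 2292, 11065 and 9312.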
